A study of Mus musculus with 10 samples.

Results

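The 8 genes described here encode the transcription factors STAT2 and STAT3 and the interferon regulatory factors IRF1, IRF2, IRF3, IRF7, IRF8 and IRF9. They were taken by name from the 25814 genes of the expression tables, and all 8 were present in the tables of all 10 libraries. RNA was sequenced from 5 groups of cells with 2 libraries each, and all cells came from wild type C57/B6 mice of 8 to 12 weeks of age. Primary keratinocytes were isolated from the tails of adult mice and maintained in SFM keratinocyte medium with 0.06 mM Ca. They were sequenced either alone or when they had shared a culture with T cells. The splenic CD8+ T cells were selected with CD8 microbeads and stimulated with αCD3/CD28 Abs over 1 d in X-VIVO 15 medium (activated T cells). They were then kept for 1 further day without keratinocytes (T cells in mixed medium) or with them (co-cultured T cells). Mixed medium is a mix of 4 parts of SFM and 1 part of X-VIVO 15 according to the methods of the study, whereas the labels of the samples name keratinocyte medium. Co-cultures held the same mix of media, and X-VIVO 15 contains Ca. No source used here states that keratinocytes alone received X-VIVO 15, so that the medium may have differed together with the presence of T cells. Effects of the medium and of T cells on keratinocytes then cannot be told apart, which also holds for the comparison of effects between the cell types. T cells were washed off before the co-cultured keratinocytes were lysed. The duration of the co-culture is 1 d in the labels and the methods but 1 h in the design text. No source states that the 2 libraries of a group came from separate mice or cultures, so p-values measure only the spread between these libraries.

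STATs are latent cytoplasmic proteins that Janus kinases phosphorylate at cytokine receptors, after which they enter the nucleus and bind DNA. Type I interferons assemble STAT2 and IRF9 with a further STAT into the complex ISGF3, which binds interferon-stimulated response elements (ISRE), whereas IFN-γ acts through STAT homodimers at GAS elements, among them one in the promoter of Irf1. IRF3 and IRF7 are switched on by sensors of foreign nucleic acids and drive type I interferon genes, IRF1 and IRF2 act at overlapping sites with largely opposite effects, IRF8 is best known from myeloid cells and B cells and is also induced in activated CD8+ T cells, and STAT3 transmits signals of the IL-6 and IL-10 families and is needed for the migration of keratinocytes.

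The libraries held 12864931 to 18019609 exon reads each. Levels are given in RPKM, the reads of a gene scaled to the length of its exons and to the size of the library. A gene with 1 kb of exons reaches 0.158 to 0.212 RPKM with 3 reads. These floors cover counting error only. The 2 libraries of every group differed far beyond sampling noise, and in all 5 groups long transcripts were lower in the second library than short ones. Of the 8 genes only Stat2 overlaps no other gene of the tables, and whether reads were counted by strand is not given in the sources used here. Keratinocyte markers (Krt5, Krt14, Krt15, Trp63, Dsp and Perp) summed to between 13365 and 18611 RPKM in the keratinocyte libraries. In co-cultured T cells this sum reached 93.6 and 51.5 RPKM. The single markers were not all steady between the keratinocyte groups. Dsp and Trp63 were lower in both co-cultured libraries than in both libraries of keratinocytes alone. The mean of Dsp was 520 RPKM alone and 59.3 RPKM in co-culture, that of Trp63 13.8 and 9.04 RPKM. Krt5 was higher in both co-cultured libraries (means 3193 RPKM alone and 4184 RPKM in co-culture), and Krt14, Krt15 and Perp overlapped. Cd8a and Cd8b1 summed to at least 251 RPKM in every T-cell library and to at most 3.16 RPKM in the keratinocyte libraries. The broader T-cell markers Cd3d, Cd3e, Cd3g, Cd2 and Lck, in contrast, were detected in all keratinocyte libraries. Their sum was 97.9 and 389 RPKM in keratinocytes alone and 126 and 691 RPKM after co-culture, compared with 1588 and 1327 RPKM in co-cultured T cells.

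The RefSeq promoter windows (GRCm38.p6, 250 bases before to 50 bases after the start) of all 8 genes were searched on both strands for 4 short sequences, of which ISRE and GAS elements are bound by interferon-dependent factors, κB sites by NF-κB and the TATA box by the basal transcription machinery. An ISRE-like sequence (GAAA and GAAA with any 2 bases between them) was found in 3.44% of 32851 mouse windows, GAS-like TTCNNNGAA in 8.30%, a κB-like sequence (GGGA and CC with any 4 bases between them) in 20.7%, and the TATA box TATAAA in 13.6%. Among the 8 genes the windows of Stat2 and Irf2 held an ISRE-like sequence, at positions -222 and -241 from the start, and those of Irf1 (-90), Irf2 (-224) and Irf8 (-171 and -153) held GAS-like sequences. The windows of Irf7 and Irf8 held a TATA box at -29 and -31, those of Irf1 (-13) and Irf8 (-58 and 10) held κB-like sequences, and the windows of Stat3, Irf3 and Irf9 held none of these letters. The 4 promoters with an ISRE-like or GAS-like sequence are shown 5′ to 3′ for the 250 bases before the start, with these sequences in capitals. The Irf2 window holds both kinds and the Irf8 window 2 GAS-like sequences close to each other. A match describes these letters only and is not a measured binding site.
Stat2 promoter, chr10:128270248-128270497, plus strand: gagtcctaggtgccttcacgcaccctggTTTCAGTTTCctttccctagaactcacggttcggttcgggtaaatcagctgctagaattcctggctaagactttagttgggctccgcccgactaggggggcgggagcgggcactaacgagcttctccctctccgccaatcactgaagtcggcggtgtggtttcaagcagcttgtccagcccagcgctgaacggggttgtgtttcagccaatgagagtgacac
Irf1 promoter, chr11:53769764-53770013, plus strand: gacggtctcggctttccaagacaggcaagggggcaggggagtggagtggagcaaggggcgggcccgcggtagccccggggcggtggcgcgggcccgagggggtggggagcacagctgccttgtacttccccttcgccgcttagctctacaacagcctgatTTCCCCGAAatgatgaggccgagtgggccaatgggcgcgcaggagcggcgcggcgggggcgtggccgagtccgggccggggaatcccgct
Irf2 promoter, chr8:46739495-46739744, plus strand: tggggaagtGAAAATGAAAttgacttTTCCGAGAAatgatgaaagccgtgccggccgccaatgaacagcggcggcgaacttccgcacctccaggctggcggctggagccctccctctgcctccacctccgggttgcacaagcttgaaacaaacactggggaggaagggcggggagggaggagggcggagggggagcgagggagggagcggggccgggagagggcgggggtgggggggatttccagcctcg
Irf8 promoter, chr8:120736108-120736357, plus strand: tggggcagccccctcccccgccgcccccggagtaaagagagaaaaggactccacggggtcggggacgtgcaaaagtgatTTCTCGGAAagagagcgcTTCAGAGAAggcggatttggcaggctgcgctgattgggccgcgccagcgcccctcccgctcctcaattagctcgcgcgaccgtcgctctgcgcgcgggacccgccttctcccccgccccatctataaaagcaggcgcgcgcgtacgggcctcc

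The first comparison asked which of the 8 genes differed in keratinocytes that had been kept with CD8+ T cells. The levels of Irf1, Irf7, Irf9, Irf8, Stat2 and Irf3 were higher in both co-cultured libraries than in both libraries of keratinocytes alone, that of Stat3 was lower in both, and the values of Irf2 overlapped. The mean of Irf1 was 13.6-fold higher, that of Irf7 7.45-fold, Irf9 2.88-fold, Irf8 2.73-fold, and Stat2 2.55-fold higher. Thus 6 genes were higher without overlap, against 19.8% of all genes tested, and 1 was lower, against 24.3%. With edgeR's quasi-likelihood test and Benjamini-Hochberg adjustment none of the 8 passed an adjusted p of 0.05, and neither did any of the 12515 genes tested (0%). At an unadjusted p under 0.05 Stat2, Irf1, Irf7 and Irf9 were higher, 4 of 8 genes against 3.08% of all genes. DESeq2 called Irf1, Irf7 and Irf9 higher, 3 of 8 genes against 0.703% of all genes, whereas limma called none. The 8 genes were chosen with earlier results of these data known, so these shares are no independent test. Over the 8 genes the median log2 fold change was 1.46, beside 0.023 for all genes tested. In such bulk RNA a change in the RNA content per cell and a change in the number of cells of a type cannot be told apart.

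**Figure D1:**
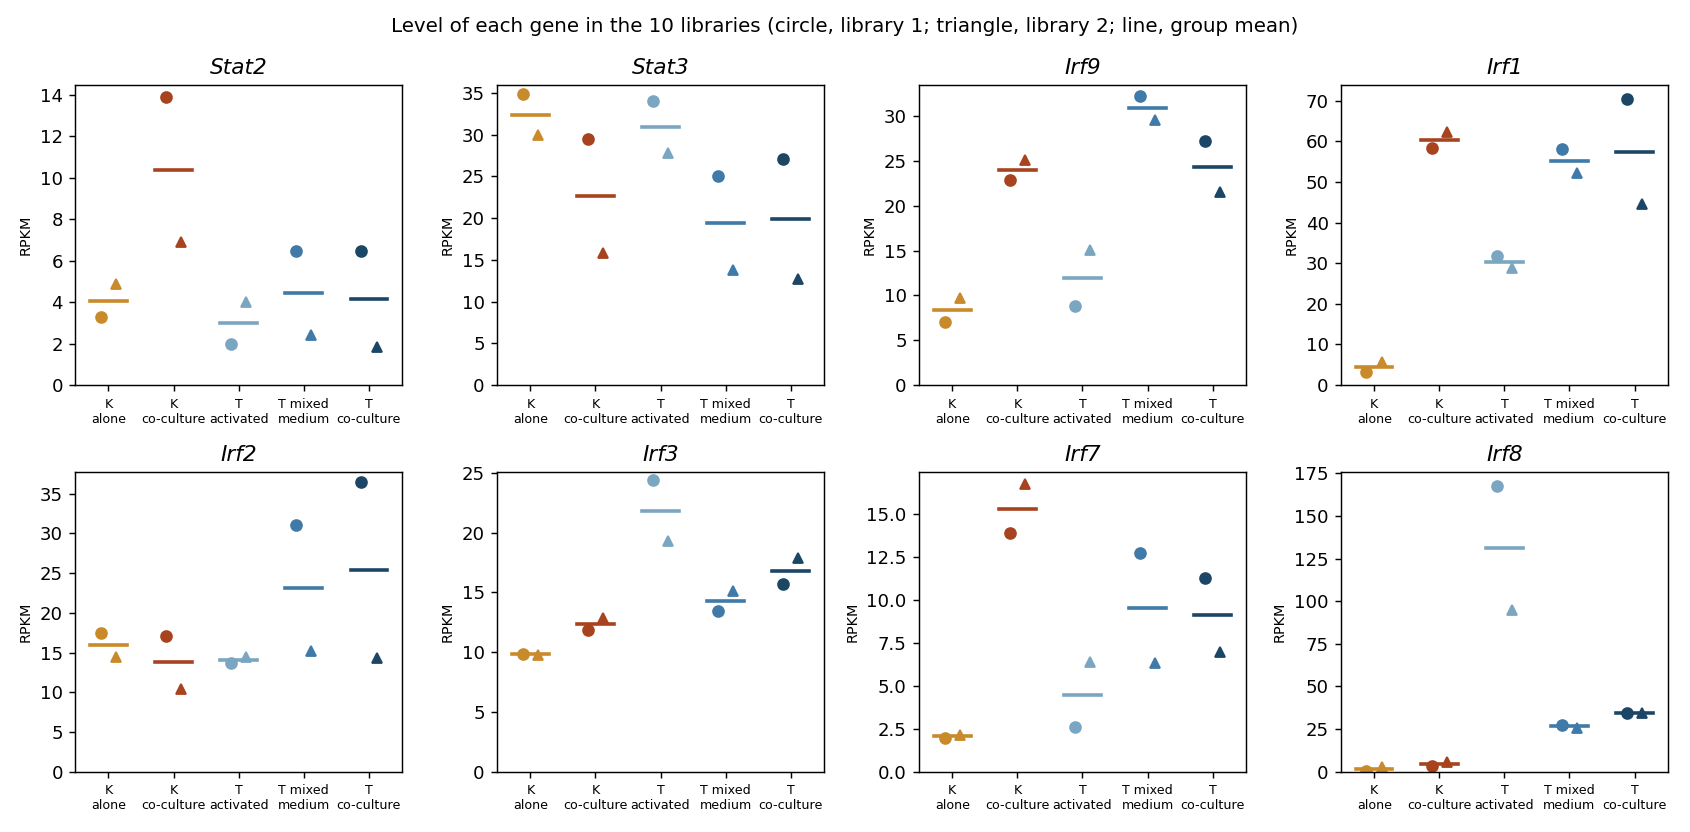
Levels of the 8 genes in RPKM (vertical axes, each starting at 0) in the 5 groups (K, keratinocytes; T, T cells), with circles for the first library, triangles for the second and lines for group means. The co-cultured keratinocytes stood above keratinocytes alone for Irf1 (58.3 and 62.3 against 3.19 and 5.72 RPKM) and for Irf7, and the activated T cells above all other groups for Irf8 (168 and 94.5 RPKM).

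In T cells the questions were what followed when activation was over and the cells were kept in mixed medium, and what the keratinocytes added to this. In mixed medium Irf8 fell and was the only one of the 8 genes called, 1 of 8 against 6.54% of all genes tested. Irf1, Irf2 and Irf9 were higher in both libraries than in both libraries of activated T cells, 3 of 8 genes against 22.1%, and Stat3, Irf3 and Irf8 were lower in both, 3 of 8 against 32.5%. DESeq2 called Irf1, Irf8 and Irf9, 3 of 8 against 16.4%. Co-cultured T cells were set against the same 2 libraries of activated T cells. Irf8 was called here too, 1 of 8 against 10.3%, Irf1, Irf7 and Irf9 were higher without overlap (3 of 8 against 23.6%), and Stat3, Irf3 and Irf8 were lower without overlap (3 of 8 against 33.9%). By CPM (exon reads scaled to the library size after TMM normalization, not to exon length) Stat3 and Irf3 overlapped between co-cultured and activated T cells, and Irf2 in co-culture and Irf7 in mixed medium were higher without overlap. DESeq2 called Irf1, Irf8 and Irf9, 3 of 8 against 20%. Because both comparisons share the activated T cells, their values are not independent of each other. The summed level of Cd8a and Cd8b1 was 454 and 251 RPKM in activated T cells, 1096 and 599 RPKM in mixed medium and 994 and 536 RPKM in co-culture, and that of the 5 broader T-cell markers 728 and 1249, 1607 and 1663 and 1588 and 1327 RPKM. Both were lower in activated T cells, and their part in the differences was not tested.

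The direct comparison of co-cultured T cells with T cells in mixed medium gave no call among the 8 genes by edgeR, where 0.261% of all genes were called, and no gene of the 8 had an unadjusted p under 0.05, against 3.45% of all genes. DESeq2 and limma called none either (DESeq2 called 0.733% of all genes). Irf3 and Irf8 were higher in both co-cultured libraries, 2 of 8 genes against 14.2%, and Irf9 was lower in both, 1 of 8 against 13.1%, but Irf3 overlapped by CPM. The 95% confidence intervals show how much could have been missed. For Irf1 the log2 difference was 0.091 ± 0.30 with an interval of -0.59 to 0.77, for Irf9 -0.30 ± 0.36 with -1.13 to 0.53, and for Irf8 0.43 ± 0.33 with -0.33 to 1.18. Irf2 (0.17 ± 0.47), Irf3 (0.28 ± 0.33), Stat2 (-0.07 ± 0.68) and Stat3 (0.067 ± 0.40) had SEs as large as or larger than those of Irf1. The median over the 8 genes was 0.079, beside -0.011 over all genes.

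**Figure D2:**
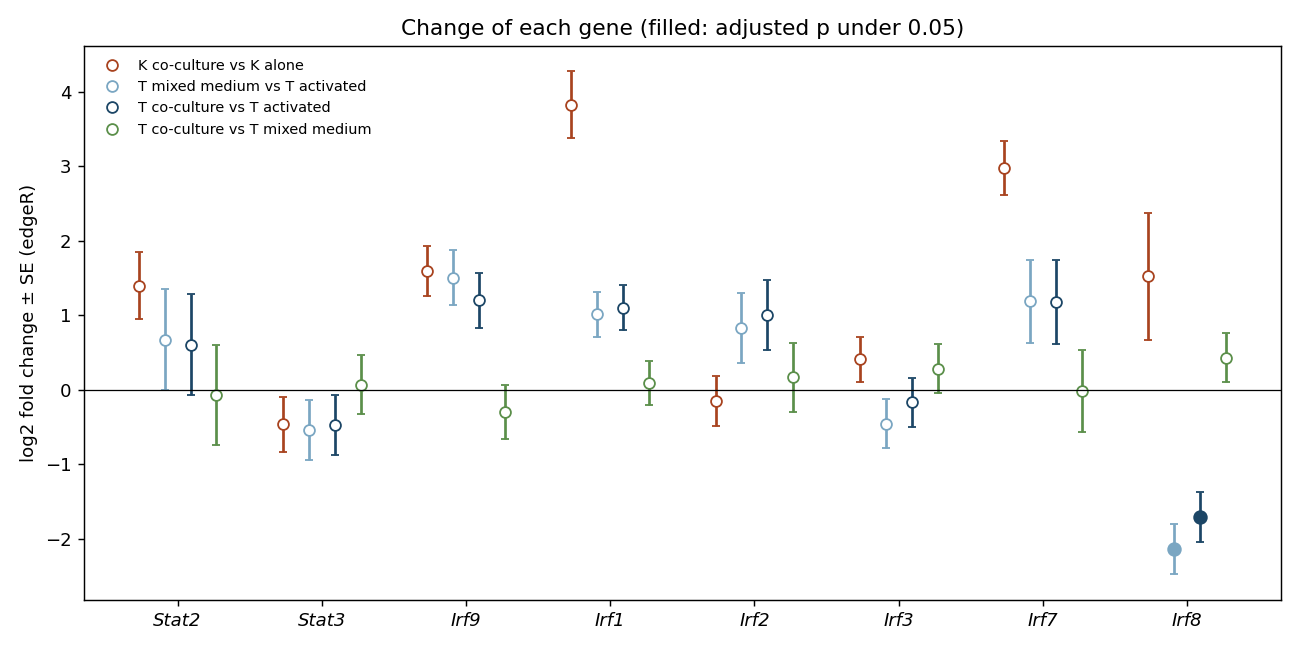
Log2 fold changes (vertical axis, edgeR) of the 8 genes in 4 comparisons, with bars for ± SE and filled symbols for an adjusted p under 0.05. Only Irf8 in both comparisons with activated T cells is filled (-2.14 and -1.71), and the changes of Irf1 (3.83) and Irf7 (2.97) in keratinocytes are the largest but did not pass.

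A fit of 8 libraries tested if co-culture had unequal effects in both cell types, as the log2 change in keratinocytes minus that in T cells between mixed medium and co-culture. Irf1 passed this test, 1 of 8 genes against 0.053% of all genes called higher, with a difference of 3.73 ± 0.54 (95% interval 2.46 to 5.00, adjusted p = 0.0364, edgeR). Irf7 (2.98 ± 0.59, adjusted p = 0.110) and Irf9 (1.89 ± 0.42, adjusted p = 0.168) did not pass with edgeR but did with DESeq2, which thus called 3 of 8 against 0.454% of all genes. The other 5 genes did not pass, with 1.44 ± 0.92 for Stat2, 1.10 ± 0.95 for Irf8, 0.12 ± 0.43 for Irf3, -0.34 ± 0.67 for Irf2 and -0.55 ± 0.60 for Stat3 (adjusted p = 0.873 or higher). The call of Irf1 held without the first library of co-cultured keratinocytes (adjusted p = 0.0399), but was lost when any other single library was left out: 0.118 and 0.0642 without the first or second library of keratinocytes alone, 0.0770 without the second of co-cultured keratinocytes, 0.123 and 0.130 without the first or second of T cells in mixed medium, and 0.105 and 0.143 without the first or second of co-cultured T cells. It was also lost with at least 10 counts in every library (adjusted p = 0.184).

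Stat2 (ENSMUSG00000040033, chr10:128270559-128292849, plus strand) and Irf9 (ENSMUSG00000002325, chr14:55603571-55610030, plus strand) encode 2 subunits of ISGF3, STAT2 as the part that activates transcription and IRF9 as the part that recognizes the ISRE. Keratinocytes alone contained 3.28 and 4.86 RPKM of Stat2, and co-cultured keratinocytes 13.9 and 6.91 RPKM. Both co-cultured libraries were above both others, the first of them by far, and the log2 fold change was 1.39 ± 0.45 (adjusted p = 0.658, edgeR). In T cells Stat2 was low, with 1.98 and 3.99 RPKM upon activation, 6.48 and 2.41 RPKM in mixed medium and 6.45 and 1.85 RPKM in co-culture. The 3 T-cell groups overlapped fully, and the libraries of a group differed by more than the group means. Stat2 was above co-cultured T cells in both libraries of co-cultured keratinocytes, with a log2 difference of 1.30 ± 0.65 (adjusted p = 0.178).

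Irf9 differed less between libraries. It was measured at 7.0 and 9.68 RPKM in keratinocytes alone and 22.9 and 25.1 RPKM after co-culture, a log2 fold change of 1.59 ± 0.34 (adjusted p = 0.658, edgeR, unadjusted p = 0.00535). DESeq2 gave 1.61 ± 0.44 with an adjusted p of 0.0203. Activated T cells stood at 8.79 and 15.1 RPKM, T cells in mixed medium at 32.2 and 29.5 RPKM and co-cultured T cells at 27.2 and 21.5 RPKM. Mixed medium thus held the highest level of all groups (mean 30.9 ± 1.90, SD, n = 2) and both libraries were above both of co-cultured T cells. The change from activated T cells missed the threshold narrowly in mixed medium (1.5 ± 0.37, adjusted p = 0.0515) and also missed it in co-culture (1.20 ± 0.37, adjusted p = 0.0750). The difference between mixed medium and activation passed in 7 of 9 alternative settings, whereas leaving out a library gave adjusted p-values of 0.0420 to 0.223. The end of the gene Rnf31, on the same strand, overlaps the start of Irf9 in the deposited coordinates, and at least 99.5% of the Irf9 exon reads were uniquely mapped.

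Irf7 (ENSMUSG00000025498, chr7:141262706-141266481, minus strand) encodes the factor that amplifies type I interferon production and is itself an ISGF3 target. Its level was 1.98 and 2.14 RPKM in keratinocytes alone, the lowest of any group, and 13.9 and 16.7 RPKM in co-cultured keratinocytes, the highest of any group by its mean. Within the replicate numbers of the labels this was 7.03-fold and 7.84-fold, and the log2 fold change was 2.97 ± 0.36 with a 95% interval of 2.05 to 3.90 (adjusted p = 0.434, edgeR). T cells had 2.61 and 6.37 RPKM upon activation, 12.7 and 6.33 RPKM in mixed medium and 11.3 and 6.96 RPKM in co-culture. The log2 fold changes against activated T cells of 1.19 ± 0.56 and 1.18 ± 0.56 did not pass (adjusted p = 0.232 and 0.209), and mixed medium and co-culture overlapped (-0.013 ± 0.55). With a library left out the changes against activated T cells ranged from 0.67 to 2.04 in mixed medium and from 0.65 to 2.03 in co-culture. Among all genes with reads, the mean level of Irf7 lay at percentile 38.0 in keratinocytes alone and 76.5 after co-culture.

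Irf3 (ENSMUSG00000003184, chr7:44997648-45002848, plus strand), whose product is made constantly and is activated by phosphorylation, differed little in keratinocytes. It was measured at 9.85 and 9.79 RPKM alone and 11.8 and 12.9 RPKM in co-culture. The groups did not overlap, yet the mean differed only 1.26-fold, with a log2 fold change of 0.41 ± 0.30 (adjusted p = 0.689, edgeR). Activated T cells contained 24.4 and 19.3 RPKM, T cells in mixed medium 13.5 and 15.1 RPKM and co-cultured T cells 15.7 and 17.9 RPKM. By RPKM activated T cells were above the other T cells in each library, whereas by CPM they overlapped with co-cultured T cells (58.0 and 49.9 against 42.2 and 58.6). These differences did not pass (-0.45 ± 0.33 and -0.17 ± 0.33, adjusted p = 0.455 and 0.790). Compared with activated T cells, keratinocytes alone contained less Irf3 (-0.99 ± 0.32, adjusted p = 0.0386, edgeR). This call was lost without either library of keratinocytes alone (adjusted p = 0.137 and 0.104), without the first of activated T cells (0.103) and without either library of T cells in mixed medium (0.0508 and 0.0514). It was also lost without the filter on low counts (-0.99, adjusted p = 0.0812).

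Irf1 (ENSMUSG00000018899, chr11:53770014-53778374, plus strand), a direct IFN-γ target that drives MHC class I, immunoproteasome and chemokine genes, showed the largest difference of the 8 genes in keratinocytes. It was measured at 3.19 and 5.72 RPKM in keratinocytes alone, on 210 and 338 exon reads, and at 58.3 and 62.3 RPKM in co-cultured keratinocytes, on 3080 and 3571 exon reads. Both co-cultured libraries lay close together, and the lower of them was over 10-fold above the higher library of keratinocytes alone. Within the replicate numbers the folds were 18.3 and 10.9, and the log2 fold change was 3.83 ± 0.45 (95% interval 2.67 to 4.98, unadjusted p = 0.00039, adjusted p = 0.434, edgeR). The adjusted p fell to 0.00613 without the first and to 0.0320 without the second library of co-cultured keratinocytes, whereas Irf1 was not called without the first (1.00) or the second library of keratinocytes alone (0.660). The mean level lay at percentile 50.9 of all genes with reads in keratinocytes alone and at 92.6 after co-culture, and Irf1, the fifth of the 8 genes in keratinocytes alone, was the highest after co-culture. Activated T cells had 31.9 and 28.7 RPKM, T cells in mixed medium 58.0 and 52.3 RPKM and co-cultured T cells 70.5 and 44.5 RPKM. Both later groups were above activated T cells in each library, with log2 fold changes of 1.01 ± 0.30 (adjusted p = 0.0839) and 1.10 ± 0.30 (adjusted p = 0.0543). Keratinocytes alone and activated T cells differed 6.81-fold (-2.61 ± 0.36, adjusted p = 0.00112, edgeR), a call kept without any single library. This log2 difference ranged from -3.22 to -2.31 when a library was left out. In co-culture both cell types reached overlapping levels, with a log2 difference of 0.032 ± 0.34 and a 95% interval of -0.74 to 0.80.

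Irf2 (ENSMUSG00000031627, chr8:46739732-46847458, plus strand), which encodes an antagonist of IRF1 at shared sites, had overlapping values in both keratinocyte groups. Keratinocytes alone contained 17.4 and 14.4 RPKM and co-cultured keratinocytes 17.1 and 10.4 RPKM, with a log2 fold change of -0.15 ± 0.34 and a 95% interval of -1.01 to 0.72. Irf1 stood below Irf2 per length of exons in both libraries of keratinocytes alone and above it in both co-cultured libraries. T cells had 13.7 and 14.5 RPKM upon activation, 31.1 and 15.2 RPKM in mixed medium and 36.5 and 14.3 RPKM in co-culture. The first libraries of both later groups were high and the second close to activated T cells, and neither difference passed (0.83 ± 0.47 and 1.00 ± 0.47, adjusted p = 0.318 and 0.206, edgeR).

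Irf8 (ENSMUSG00000041515, chr8:120736358-120756694, plus strand), a factor of myeloid and B-cell differentiation, was highest in activated T cells. These T cells contained 168 and 94.5 RPKM, T cells in mixed medium 27.7 and 25.7 RPKM and co-cultured T cells 34.7 and 34.6 RPKM. It exceeded the other 7 genes in activated T cells, and both libraries were far above those of all other groups. The mean was 4.91-fold lower in mixed medium (-2.14 ± 0.34, adjusted p = 0.0181, edgeR) and 3.78-fold lower in co-culture (-1.71 ± 0.34, adjusted p = 0.0199). The first call was lost without the first library of activated T cells (adjusted p = 0.0820) or either library of mixed medium (0.0957 and 0.108). The second was lost without the first library of activated T cells (0.109) or either library of co-cultured T cells (0.0690 and 0.0785). Both were lost in a fit of all 10 libraries (adjusted p = 0.10 and 0.144). Co-cultured T cells were above those in mixed medium in both libraries, but the difference of 0.43 ± 0.33 did not pass. Of the B-cell markers, Cd79a was at 10.4 and 8.81 RPKM in activated T cells, 15.9 and 26.9 RPKM in mixed medium and 3.29 and 7.28 RPKM in co-culture, Ms4a1 at 3.97 and 4.24, 5.54 and 17.5 and 0.555 and 1.63 RPKM, and Cd79b at 13 and 15.0, 19.4 and 39.4 and 12.6 and 16.9 RPKM. All 3 were highest in mixed medium, and in co-culture Cd79a and Ms4a1 were below activated T cells without overlap, as was Irf8. Macrophage, monocyte and dendritic cell markers (6 of 7 listed genes measured) summed to 15.1 and 67.2 RPKM in activated T cells, 45.9 and 49.7 RPKM in mixed medium and 39.8 and 54.0 RPKM in co-culture, and the groups overlapped. The part of such cells in the Irf8 values was not tested.

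Keratinocytes contained little Irf8, with 0.598 and 2.75 RPKM alone and 3.24 and 5.91 RPKM in co-culture. The groups did not overlap in RPKM, but did in uniquely mapped reads. The log2 fold change was 1.52 ± 0.85 (adjusted p = 0.658, edgeR) and ranged from 0.79 to 3.06 when a library was left out. Keratinocytes alone were 78.2-fold below activated T cells (-6.11 ± 0.78, adjusted p = 0.00080), a call kept without any single library. This log2 difference ranged from -7.73 to -5.47 when a library was left out. Co-cultured keratinocytes were 7.57-fold below co-cultured T cells (-2.97 ± 0.67, adjusted p = 0.0145), a call lost without the first library of co-cultured keratinocytes (0.0852) and without the second of co-cultured T cells (0.0522). The gene model Gm20388 (chr8:119910841-124345722, same strand) covers the whole of Irf8, and only 16.5% to 34.2% of the Irf8 exon reads were uniquely mapped. By uniquely mapped reads the libraries held 10 and 55 reads in keratinocytes alone, 30 and 75 in co-cultured keratinocytes, 1873 and 774 in activated T cells, 287 and 293 in mixed medium and 412 and 397 in co-cultured T cells. These counts kept the order of the groups, but with them the log2 difference in co-culture was -1.36 ± 0.40 and not called (adjusted p = 0.0639), whereas that in mixed medium was -2.05 ± 0.41 (adjusted p = 0.0274). The difference in keratinocytes was 0.87 ± 1.07 with these reads, as compared with 1.52 for all exon reads.

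Stat3 (ENSMUSG00000004040, chr11:100885098-100939540, minus strand), the factor of IL-6 type cytokines, was the highest of the 8 genes in keratinocytes alone. These contained 34.9 and 30.0 RPKM, and co-cultured keratinocytes 29.5 and 15.8 RPKM. The higher co-cultured library was just below the lower one of keratinocytes alone, and the log2 fold change was -0.46 ± 0.37 (adjusted p = 0.701, edgeR). T cells had 34.0 and 27.8 RPKM upon activation, 25.1 and 13.8 RPKM in mixed medium and 27.1 and 12.7 RPKM in co-culture. The first libraries of both later groups were just below activated T cells and the second libraries far lower, and neither difference passed (-0.54 ± 0.40 and -0.47 ± 0.40, adjusted p = 0.459 and 0.485). Stat3 has the longest exons of the 8 genes (6228 bases).

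The order of the groups by mean RPKM differed from gene to gene. Neighbours were taken as apart where their libraries did not overlap and their means differed by more than the sum of both SDs. For Irf8 the order was activated T cells (131 ± 51.6), co-cultured T cells (34.6 ± 0.0906), T cells in mixed medium (26.7 ± 1.44), co-cultured keratinocytes (4.57 ± 1.89) and keratinocytes alone (1.68 ± 1.52, SD, n = 2 each), and all neighbours except the last pair were apart. For Irf1 co-cultured keratinocytes (60.3 ± 2.82), co-cultured T cells (57.5 ± 18.4) and mixed-medium T cells (55.1 ± 4.09) were not apart from each other, but stood above activated T cells (30.3 ± 2.22), and these above keratinocytes alone (4.45 ± 1.79). For Irf9 T cells in mixed medium stood above co-cultured T cells (24.4 ± 4.02), co-cultured keratinocytes (24.0 ± 1.53) were level with these and above activated T cells (11.9 ± 4.47), and keratinocytes alone (8.34 ± 1.90) came last, not apart from the latter. For Irf3 activated T cells (21.8 ± 3.60), co-cultured T cells (16.8 ± 1.53) and mixed-medium T cells (14.3 ± 1.17) were not apart from their neighbours, although the first and the last of these were apart from each other, and co-cultured keratinocytes (12.4 ± 0.744) and keratinocytes alone (9.82 ± 0.0419) followed, each apart from the group above. No neighbours were apart for Stat2, Stat3, Irf2 and Irf7, although keratinocytes alone and co-cultured keratinocytes, at opposite ends for Irf7, did not overlap (2.06 ± 0.109 and 15.3 ± 1.99).

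When keratinocytes alone were set against activated T cells, edgeR called Irf1, Irf3 and Irf8 lower in keratinocytes, 3 of 8 genes against 13% of all genes, and none higher, against 22.5%. The libraries did not overlap for these genes and Irf7, 4 of 8 lower against 35.1% of all genes, and none of the 8 was higher without overlap, against 38.7%, whereas Stat3 and Irf2 were so by CPM. The log2 differences that did not pass were 0.58 ± 0.65 for Stat2, 0.23 ± 0.39 for Stat3, 0.32 ± 0.43 for Irf2, -1.0 ± 0.52 for Irf7 and -0.38 ± 0.36 for Irf9. In co-culture only Irf8 was called between the cell types, 1 of 8 against 6.73% called lower, and none was higher, against 17%. Stat2 and Irf7 were higher in both libraries of co-cultured keratinocytes (2 of 8 against 36.7%), and Irf3 and Irf8 were lower (2 of 8 against 25.7%), as was Irf2 by CPM. Of these Irf7 (log2 difference 0.72 ± 0.51), Irf3 (-0.52 ± 0.32) and Stat2 did not pass, nor did Irf2 (-0.91 ± 0.43), Stat3 (0.14 ± 0.39), Irf9 (-0.075 ± 0.36) and Irf1.

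The ligands, receptors, inhibitors and targets around the 8 genes were described with lists, for which edgeR's adjusted p over all genes is given. IFN-γ, the ligand that induces Irf1, was transcribed in activated T cells at 613 and 589 RPKM and fell to 5.95 and 7.20 RPKM in mixed medium (log2 fold change -6.36 ± 0.49, adjusted p = 0.00345) and to 3.26 and 6.20 RPKM in co-culture (-6.77 ± 0.50, adjusted p = 0.00162). Ifng was thus low in those T-cell groups in which the means of Irf1 and Irf9 were highest. Keratinocytes had 1.26 and 2.63 RPKM of Ifng alone and 1.36 and 5.92 RPKM in co-culture. Ifnb1 and Ifnk, which encode type I interferons, are listed at 0 in all 10 libraries. Of the 10 ligands, 6 could be tested in T cells, and Osm, a STAT3-activating cytokine of the IL-6 family, also fell in co-cultured T cells (-2.28 ± 0.50, adjusted p = 0.0289). This made 1 of 6 ligands called lower in mixed medium, against 4.22% of all genes, and 2 of 6 in co-culture, against 5.72%.

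Of 13 receptors and kinases tested in T cells, 1 was called higher in mixed medium (against 2.32% of all genes) and 2 in co-culture (against 4.59%). Ifnar2, a chain of the type I interferon receptor, rose in mixed medium (1.66 ± 0.32, adjusted p = 0.0270) and in co-culture (1.65 ± 0.32, adjusted p = 0.0193). Il10rb, a chain shared by IL-10 family receptors, rose in co-culture (1.53 ± 0.37, adjusted p = 0.0394) and gave 1.44 ± 0.37 in mixed medium (adjusted p = 0.0573). Ifngr1, the ligand-binding chain of the IFN-γ receptor, was at 22.1 and 68.7 RPKM in activated T cells and at 145 and 96.6 and 169 and 160 RPKM in the later groups, where it did not pass (1.52 ± 0.52 and 2.02 ± 0.53, adjusted p = 0.121 and 0.0502). In keratinocytes none of the 14 receptors and kinases was called by edgeR or DESeq2, none had an unadjusted p under 0.05, and the list median was -0.37 beside 0.023 for all genes. Among 9 inhibitors, Cish, an inhibitor induced by cytokines, fell in mixed medium (-1.80 ± 0.38, adjusted p = 0.0346), 1 of 9 against 4.22% of all genes called lower. Socs1, the main inhibitor of IFN-γ signalling, was measured with 1.49 and 4.02 RPKM in keratinocytes alone and 4.37 and 10.5 RPKM after co-culture, without overlap of the groups (1.52 ± 0.73, adjusted p = 0.658).

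Target genes of interferons had larger medians in keratinocytes than the 8 factors. The lists were written with earlier results of these data known, and the study names many of these targets as induced in co-cultured keratinocytes. Their shares beside those of all genes are therefore no independent test. Of 20 targets of IFN-γ and IRF1, 19 were tested and all 19 had a positive log2 fold change, with a median of 2.95 beside 1.46 for the 8 factors and 0.023 for all genes. edgeR called none, 18 had an unadjusted p under 0.05 and were higher (3.08% of all genes), and DESeq2 called 15 (0.703%). Of 18 genes with ISRE, 16 were tested and 15 were positive (median 2.02), edgeR called none, 11 had an unadjusted p under 0.05, and DESeq2 called 9. Of 8 targets of STAT3, 4 were positive (median -0.035), and neither edgeR nor DESeq2 called one, nor did any have an unadjusted p under 0.05. Of 11 genes for the activation of IRF3 and IRF7, 7 were positive (median 0.55), edgeR called none, 1 had an unadjusted p under 0.05, and DESeq2 called 1. The 5 broader T-cell markers summed to 97.9 and 389 RPKM in keratinocytes alone and to 126 and 691 RPKM in co-culture. Cd8a and Cd8b1 summed to 0.224 and 1.47 RPKM alone and to 1.32 and 3.16 RPKM in co-culture. The part of T-cell RNA in the levels of these lists was not tested. In the fit that compared the effect of co-culture between the cell types, Cxcl9 and Gbp3, a chemokine and a guanylate-binding protein induced by IFN-γ, were called higher, 2 of 20 against 0.053% of all genes (Cxcl9 10.28 ± 0.93, adjusted p = 0.00730, and Gbp3 6.50 ± 0.88, adjusted p = 0.0290), and all 20 targets of IFN-γ and IRF1 were positive (median 2.79, all genes 0.019).

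In T cells 3 of 20 targets of IFN-γ and IRF1 rose in mixed medium, against 2.32% of all genes called higher, all with roles in antigen processing: the immunoproteasome subunits Psmb9 (1.76 ± 0.33, adjusted p = 0.0243) and Psmb10 (1.52 ± 0.34, adjusted p = 0.0397) and the peptide transporter Tap1 (1.73 ± 0.29, adjusted p = 0.0205). The list median was 0.79 beside -0.015 for all genes. In co-culture Psmb9 (1.75 ± 0.33, adjusted p = 0.0170), Tap1 (1.98 ± 0.30, adjusted p = 0.00934) and the immunity-related GTPase Igtp (1.23 ± 0.31, adjusted p = 0.0424) rose against activated T cells, 3 of 20 against 4.59% of all genes. Of 15 genes with ISRE none was called in mixed medium by edgeR, 4 had an unadjusted p under 0.05 and DESeq2 called 3, all of them higher (median 0.69). In that comparison 25% of all genes had an unadjusted p under 0.05 (11% higher) and DESeq2 called 16.4% (7.26% higher). Among the 6 STAT3 targets tested, the kinase gene Pim1 fell in mixed medium (-1.63 ± 0.31, adjusted p = 0.0261) and in co-culture (-1.52 ± 0.31, adjusted p = 0.0223), and the AP-1 gene Junb fell in mixed medium (-1.43 ± 0.34, adjusted p = 0.0455), where 4.22% of all genes were called lower, as were 5.72% in co-culture. When co-culture was compared directly with mixed medium, no gene of any list was called by edgeR or DESeq2. At an unadjusted p under 0.05 (edgeR) there were 2 receptors and kinases, 4 inhibitors, 1 gene with ISRE and 1 STAT3 target. All were higher in co-culture, as were 2.7% of all genes. In these lists Socs3 is both an inhibitor and a STAT3 target, and Usp18 both an inhibitor and a gene with ISRE.

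**Figure D3:**
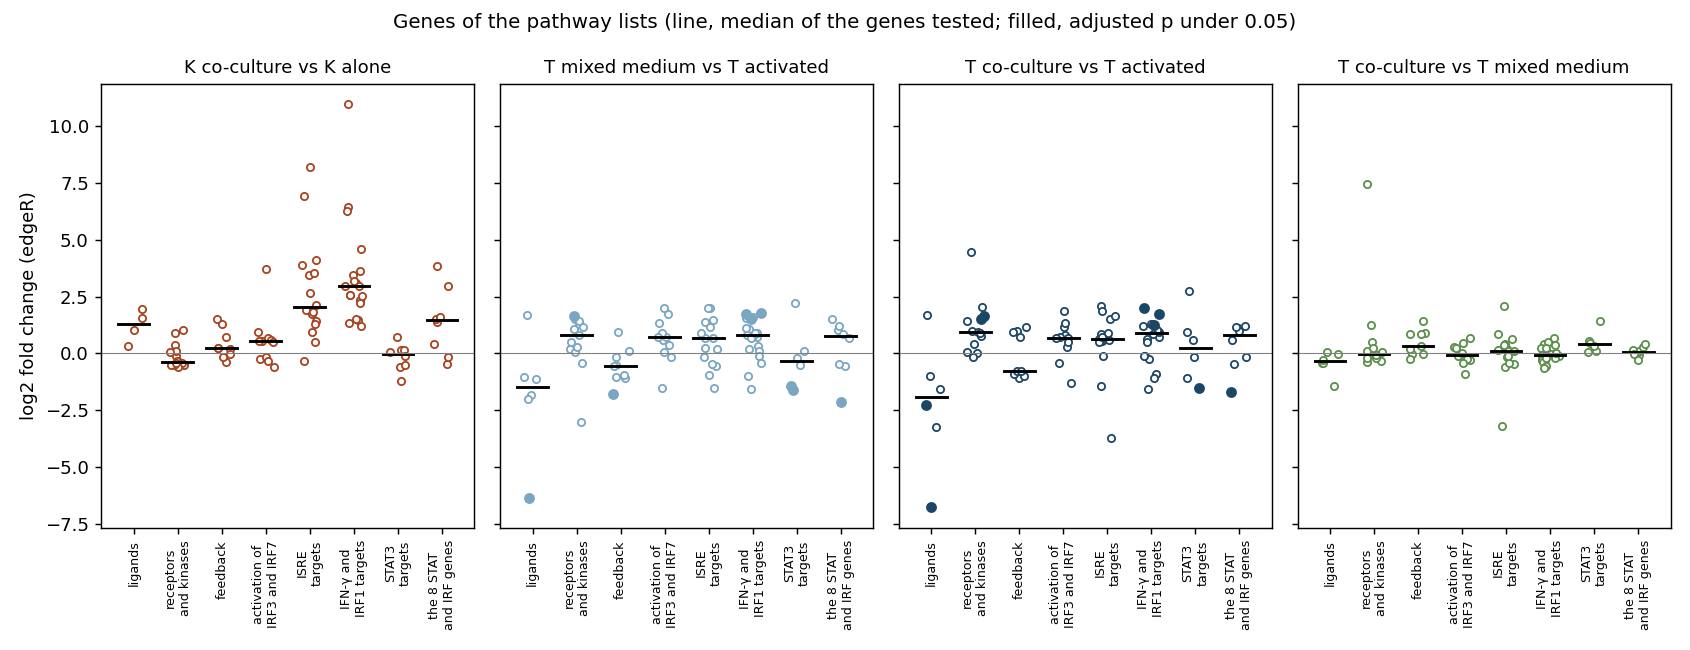
Log2 fold changes (vertical axes, edgeR) of all tested genes of 7 pathway lists and of the 8 STAT and IRF genes in 4 comparisons, with lines for list medians and filled symbols for an adjusted p under 0.05. In keratinocytes the medians of ISRE targets (2.02) and of IFN-γ and IRF1 targets (2.95) stand above that of the 8 genes (1.46), whereas STAT3 targets lie near 0 (-0.035).

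Since T-cell markers were found in the keratinocyte libraries, their level was set beside that of the 8 genes. Relative to co-cultured T cells the 5 markers reached 6.72% and 26.7% in keratinocytes alone and 8.62% and 47.4% in co-cultured keratinocytes, all 5 of 5 genes being detected. The share was higher in both second libraries, and by Cd8a and Cd8b1 it was 0.0293% and 0.192% alone and 0.173% and 0.414% in co-culture. Cd4 gave larger shares, of 18.1% and 68.8% in keratinocytes alone and 23.6% and 133% in co-cultured keratinocytes. Its level was 11.4 and 43.5 RPKM in keratinocytes alone and 15.0 and 84.5 RPKM in co-cultured keratinocytes. In co-cultured T cells it was at 64.6 and 62.0 RPKM. If the share of the 5 markers is multiplied by the mean level in co-cultured T cells, Irf1 gives 4.96 and 27.2 RPKM for the co-cultured keratinocytes, below the measured 58.3 and 62.3 RPKM. The same product for keratinocytes alone (3.86 and 15.3 RPKM) exceeds what was measured there. For Irf7 the product is 0.786 and 4.32 RPKM and for Irf9 2.10 and 11.5 RPKM in co-cultured keratinocytes, again below the measured values, and for Stat2 it is 0.358 and 1.97 RPKM. For Irf8 it is 2.98 and 16.4 RPKM, close to or above the measured 3.24 and 5.91 RPKM. With the CD8 markers no product for these 5 genes would exceed the measured value. Cd4 was higher in the second library of co-cultured keratinocytes than in both libraries of co-cultured T cells. In that library a product with Cd4 is 76.7 RPKM for Irf1, 32.5 RPKM for Irf9 and 46.2 RPKM for Irf8. These exceed the measured 62.3, 25.1 and 5.91 RPKM. For Irf7 and Stat2 it is 12.2 and 5.54 RPKM, below the measured 16.7 and 6.91 RPKM. In the first library of co-cultured keratinocytes the Cd4 product exceeds the measured value only for Irf8 among these genes (8.19 against 3.24 RPKM). The part of T-cell RNA in these differences was not tested.

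**Figure D4:**
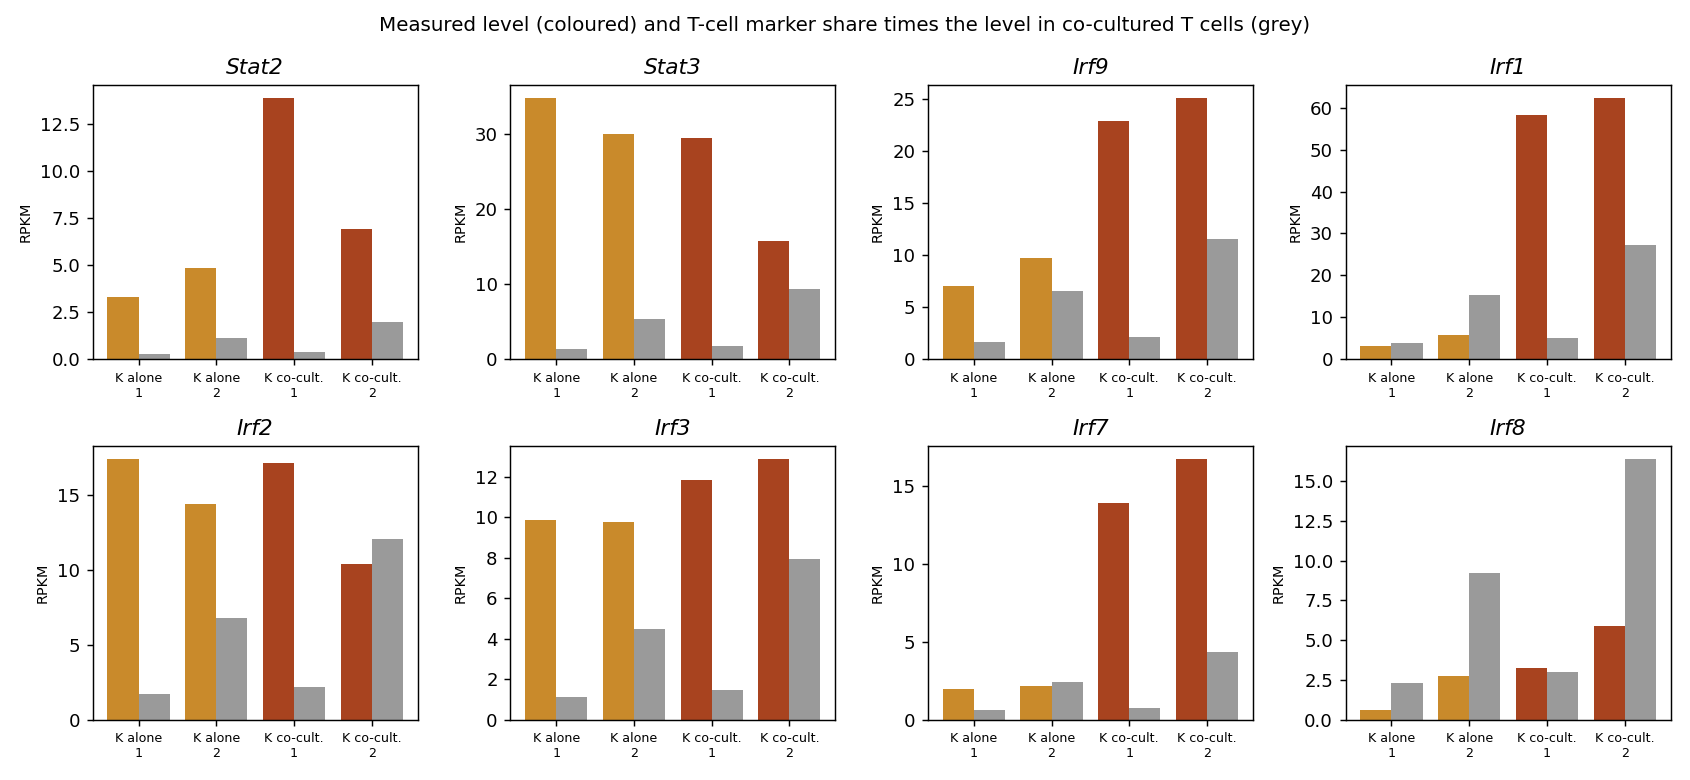
Measured level of the 8 genes in the 4 keratinocyte libraries (coloured bars, RPKM from 0) and the T-cell marker share times the mean level in co-cultured T cells (grey bars). In both co-cultured libraries the measured Irf1 (58.3 and 62.3 RPKM) stands above the grey bars (4.96 and 27.2 RPKM), whereas for Irf8 it does so only in the first library.

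The length of the transcripts also moved with the libraries. Medians of the log2 ratio of the second to the first library were 0.18 and 0.20 for genes with under 2000 bases of exons in the keratinocyte groups, but -0.32 and -0.56 for those with 4000 bases and more. Stat2 (4397 bases) had log2 ratios of -1.01 in co-cultured keratinocytes, -1.43 in mixed medium and -1.80 in co-cultured T cells, but of 0.57 and 1.02 in the remaining groups. Stat3 (6228 bases) was lower in the second library of all 5 groups. When the trend with exon length was removed and the replicate numbers were used as a block, a setting chosen after seeing the data, edgeR called Stat2 (adjusted p = 0.0430), Irf1 (0.00020), Irf7 (0.00138), Irf8 (0.0365) and Irf9 (0.0129) higher in co-cultured keratinocytes, 5 of 8 genes against 1.6% of all genes called higher. Neither the block nor the length trend alone gave a call.

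**Figure D5:**
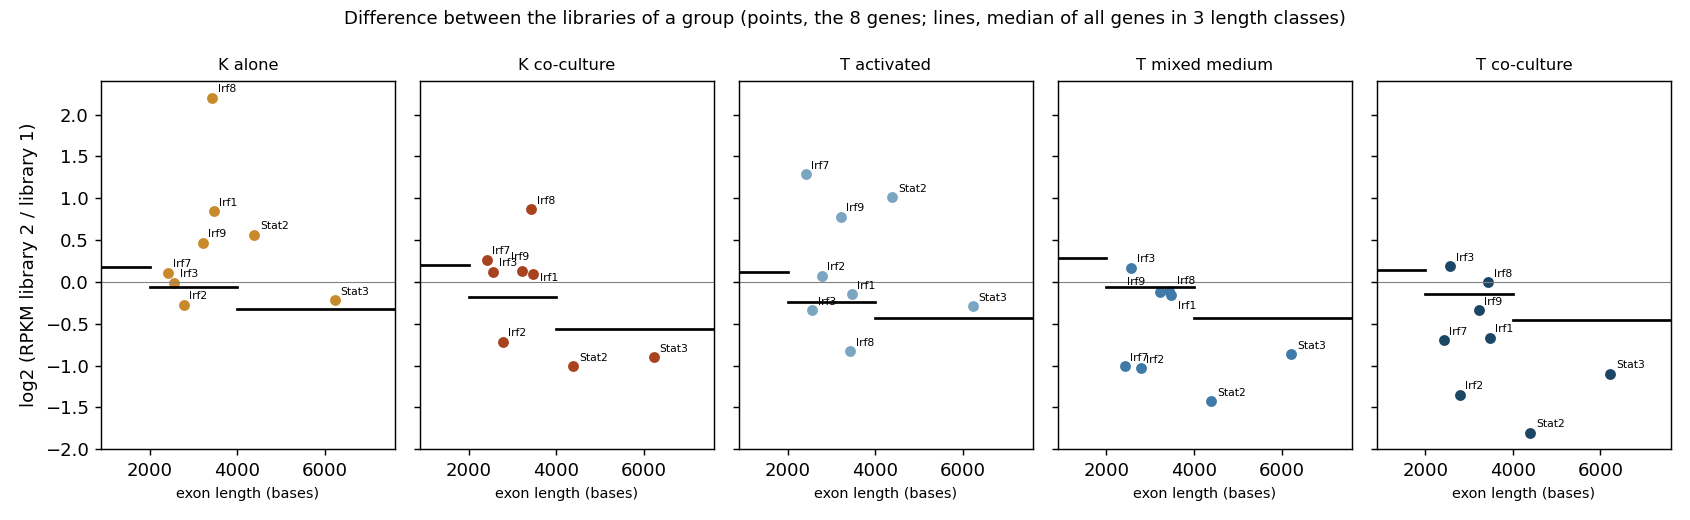
Log2 ratio of RPKM in the second to the first library (vertical axis) against exon length in bases, for the 8 genes (points) in each group and for the medians of all genes in 3 length classes (lines). The lines descend in all 5 groups, to -0.56 in co-cultured keratinocytes, and Stat2 lies as low as -1.80 in co-cultured T cells.

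Intron reads, which the tables give beside the exon reads, were few for these genes. Irf7 had 0 in all libraries, Irf1 4 and 6 in keratinocytes alone, 15 and 12 after co-culture, 4 and 0 in activated T cells, 2 and 9 in mixed medium and 19 and 61 in co-cultured T cells. Irf8 had 0 and 0 in keratinocytes alone, 0 and 4 after co-culture, 41 and 116 in activated T cells, 25 and 65 in mixed medium and 10 and 125 in co-cultured T cells. The one call among the 8 genes was Irf8, lower in keratinocytes alone, at 0 reads, than in activated T cells (adjusted p = 0.00611, edgeR), where 3.95% of 9078 genes were called, and no fold is given against a group at 0. At this depth a change of Irf1 intron reads in keratinocytes was not detectable (1.86 ± 1.07, adjusted p = 1.00).

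For each of the 8 genes, the 3 genes with the most similar pattern were sought among 8744 genes with a group mean of 5 or more RPKM, by Pearson's r of log2(RPKM + 1) over the 10 libraries. These values are descriptions, since the 10 libraries form only 5 groups and share depth and length trends. Irf1 was closest to Irgm1 (0.977), Tgtp1 (0.974) and Psmb10 (0.967), 2 GTPases and an immunoproteasome subunit that respond to interferons. Irf7 was closest to Xaf1 (0.955), Rtp4 (0.901) and Parp10 (0.899), and Irf9 to Uba7 (0.948), Trim21 (0.947) and Dscr3 (0.944). Stat2 had no neighbour as close, with Pdlim1 (0.872), Tapbp (0.860) and Terf1 (0.822), of which Tapbp encodes tapasin. Irf8 was closest to Ccnd3 (0.988), As3mt (0.987) and Eri1 (0.986), and Irf3 to E2f1 (0.979), Mrps6 (0.967) and Serpinb9 (0.966), genes that were high in activated T cells. Irf2 was closest to Jak1 (0.946), Arel1 (0.932) and Elf1 (0.931) and Stat3 to Chd8 (0.982) and Ankhd1 (0.978), the former encoding a chromatin protein. With Spearman's rho only 3 of the 24 nearest genes were again among the nearest.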

How the data were processed

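The 10 libraries were prepared with the NEBNext Ultra II kit and sequenced as single-end reads on a HiSeq2500. The authors used the CLC Genomics Workbench in its default settings for RNA-Seq to map them to GRCm38. Annotation release and counting options are not given in the sources used here. For each library and gene the authors deposited counts of exon, uniquely mapped and intron reads without normalization, and RPKM values, which scale exon reads to exon length and library size. Groups came from the labels. For keratinocytes and activated T cells the replicate numbers are those of the labels, whereas for the other T cells they follow the order of deposition and pair nothing.

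Exon reads were tested with edgeR 4.0.16 under R 4.3.3 (filterByExpr, TMM, glmQLFit and glmQLFTest), which gave log2 fold changes, their SE (size divided by the square root of F), 95% confidence intervals and p-values. The Benjamini-Hochberg adjustment ran over all genes tested. The 4 keratinocyte libraries, the 6 T-cell libraries, all 10 libraries (comparisons between cell types) and the 8 libraries after the further day or alone (difference between effects) were fitted apart. RPKM served for levels and means ± SD. The study states no count model. The fits of the 8 genes were also run with DESeq2 1.42.0, with limma 3.58.1 and pseudocounts of 1 or 0.1 on log2 RPKM, with library size instead of TMM, without the filter, with a minimum of 10 counts per library, from uniquely mapped reads, with the replicate block (for both comparisons of keratinocytes alone only), with other sets of libraries and with each library left out, and CPM with TMM scaling, Spearman's rho, promoters without the 50 bases after the start, and Cd8a and Cd8b1 were tried for order, likeness, motifs and marker share. Pathway lists were run with edgeR and DESeq2 only. Removal of the trend with exon length was added after seeing the data. The fits were tested on simulated data with planted log2 changes of size 1.5 or 3. For the keratinocyte libraries edgeR recovered 6 of 102 and 64 of 92 of these, with 4 false calls. DESeq2 recovered 15 of 102 and 67 of 92, with 19 false calls. For T cells in mixed medium against activated T cells edgeR recovered 20 of 110 and 66 of 84, with 3 false calls. DESeq2 recovered 32 of 110 and 67 of 84 there, with 14 false calls.

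All 8 genes are described in each comparison. Of the pathway lists, genes with an adjusted p under 0.05 (up to 4 per list and direction), selected ligands, receptors and inhibitors, and for each of the 8 the 3 genes with the most similar pattern are named. Pathway genes called between keratinocytes and T cells are not named. A B-cell marker and a gene with a similar pattern to Stat3 are not reported here. The 8 genes, the lists and the markers were chosen with earlier results of these data known. Langerhans cell (Epcam, and Cd207 at 0), fibroblast and melanocyte markers summed to at most 132, 2.03 and 18.9 RPKM, and Cd4 to 11.4 to 102 RPKM in any library. Promoters are from RefSeq, where all 8 genes matched. Protein sequences were not used here. Tables and plots were made in Python 3.11.15 (pandas 2.3.3, numpy 2.4.6, matplotlib 3.10.9 and scipy 1.17.1). Library sizes were 12864931 to 18019609 exon reads (median 14830028), of which 78.2% to 87.2% were uniquely mapped. The sources used here name no molecular identifiers, so reads of 1 molecule may have been counted repeatedly.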

Additional observations from a re-analysis of the deposited data

Results flagged for a closer look

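Irf1 was taken up because the effect of co-culture differed between keratinocytes and T cells in a test of this difference. Between keratinocytes alone and co-cultured keratinocytes Irf1 went from 3.19 and 5.72 to 58.3 and 62.3 RPKM, and between T cells in mixed medium and co-cultured T cells from 58.0 and 52.3 to 70.5 and 44.5 RPKM. The log2 difference between these effects was 3.73 ± 0.54 (adjusted p = 0.0364, edgeR's quasi-likelihood test with Benjamini-Hochberg adjustment). The call was lost in 7 of 8 fits with a library left out and with at least 10 counts in every library (adjusted p = 0.184).

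Irf9 was taken up because its libraries moved in opposite directions in the cell types, which was not tested as such. Both co-cultured keratinocyte libraries (22.9 and 25.1 RPKM) were above keratinocytes alone (7.0 and 9.68 RPKM), whereas both libraries of co-cultured T cells (27.2 and 21.5 RPKM) were below those in mixed medium (32.2 and 29.5 RPKM), with a mean difference of -6.52 RPKM. In the fit of 8 libraries the log2 difference between the effects was 1.89 ± 0.42 (adjusted p = 0.168, edgeR).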

How the results depend on the processing

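Of 528 log2 fold changes of the 8 genes under other settings with no library left out, 487 kept direction and call, 5 lost a call, 28 gained one and 8 turned. Of 400 log2 fold changes with a library left out, 24 turned. The number of the 8 genes called in co-cultured keratinocytes (0) became 3 with DESeq2, 1 without a filter and 1 in a fit of all 10 libraries. It became 5 with the length trend removed and the replicate block. Over all genes the main fit called 0 of 12515, and DESeq2 88 higher and 98 lower. Without a filter 11 of 15824 genes were called higher, and 4 of 13394 in the fit of all 10 libraries. With the length trend removed and the block 200 genes were higher and 291 lower. The block alone left the number of the 8 at 0 (Irf1 adjusted p = 0.0508) and called 2 of all genes higher. Deviations of same-numbered keratinocyte libraries correlated at r = 0.558 over 12515 genes, from 2 pairs only. The trend with exon length ran the same way in all 5 groups. Pairing and this trend cannot be told apart here. In mixed medium the number of the 8 called (1) became 3 with DESeq2 or the length trend removed. It became 2 with limma at either pseudocount, without a filter or with at least 10 counts. In the fit of all 10 libraries it stayed at 1, but Irf9 was called in place of Irf8. That fit called 245 of 13394 genes higher and 485 lower. Of all 11863 genes 275 were called higher and 501 lower in the main fit. DESeq2 called 861 and 1086, the length trend setting 518 and 738, and limma 310 and 818 or 311 and 745. Without a filter these were 843 and 1102 of 15291 genes, and with at least 10 counts 341 and 576 of 9861. In co-cultured against activated T cells the number of the 8 called (1) became 3 with DESeq2 or without a filter. It became 2 with at least 10 counts or the length trend removed, and 0 with uniquely mapped reads or all 10 libraries. The main fit called 544 of 11863 genes higher and 678 lower, DESeq2 1134 and 1234, and the length trend setting 796 and 946. Without a filter these were 1132 and 1293 of 15291 genes, and with at least 10 counts 492 and 715 of 9861. Uniquely mapped reads gave 533 and 673 of 11422, and all 10 libraries 587 and 665 of 13394. For the difference between effects the number of the 8 called (1) became 3 with DESeq2, 2 without a filter and 0 with at least 10 counts. All genes called higher and lower were 7 and 69 of 13202 in the main fit and 60 and 293 with DESeq2. Without a filter they were 24 and 181 of 16607, and with at least 10 counts 0 and 0 of 9580. For co-cultured against mixed-medium T cells the number of the 8 called stayed at 0 throughout. For keratinocytes alone against activated T cells (3) it became 2 without a filter, where Irf3 was lost. There 3131 of 16891 genes were called higher and 1833 lower, against 3014 and 1740 of 13394 in the main fit. For co-cultured keratinocytes against co-cultured T cells the number of the 8 called moved only when libraries were left out. The cause was not tested. Leaving out a library moved the number of the 8 genes called in every comparison except co-cultured against mixed-medium T cells. The number called among all genes moved too. In these fits the spread of a lone library is taken from the other groups, so the numbers are not given here.

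Small values turned sign without a call. Stat3 in co-cultured against mixed-medium T cells gave -0.0031 and -0.0050 with limma at pseudocounts 1 and 0.1, and Irf7 there 0.00013 with all 10 libraries. With the length trend removed Stat3 gave -0.45 in keratinocytes alone against activated T cells and -0.27 in co-cultured keratinocytes against co-cultured T cells, Irf1 -0.22 in the latter (-0.054 with only these 4 libraries), and Irf3 -0.046 for the difference between effects. With a library left out the ranges spanned 0 for Irf2 in keratinocytes (-0.48 to 0.094), Stat2 in mixed medium (-0.072 to 1.33), Stat2 (-0.42 to 1.26) and Irf3 (-0.37 to 0.0085) in co-cultured against activated T cells, Stat2 (-1.09 to 0.68), Stat3 (-0.45 to 0.45), Irf1 (-0.16 to 0.31), Irf2 (-0.52 to 0.65) and Irf7 (-0.38 to 0.46) in co-cultured against mixed-medium T cells, Irf9 (-0.84 to 0.034) in keratinocytes alone against activated T cells, Stat3 (-0.27 to 0.60), Irf1 (-0.14 to 0.23) and Irf9 (-0.24 to 0.083) between co-cultured cell types, and Irf2 (-0.83 to 0.36) and Irf3 (-0.063 to 0.32) for the difference between effects. Library size in place of TMM shifted the median of all genes by -0.11 in mixed medium, -0.16 in co-cultured against activated T cells and -0.16 in keratinocytes alone against activated T cells, and turned none of the 8 genes. The mean T-cell marker share of co-cultured keratinocytes was 28% with 5 markers and 0.293% with Cd8a and Cd8b1. With CPM the order of groups was the same for 6 of 8 genes, and without the 50 bases after the start 10 of 11 motif matches were left. Irf8 in keratinocytes rests on 10 to 75 unique reads, and only 16.5% to 34.2% of its exon reads per library were uniquely mapped.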
